A study of Mus musculus with 4 samples.

Results

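Radial glia are the stem cells of the developing cortex, and the 10 genes described here are genes by which they are commonly recognised. The 10 were taken by symbol from a table of 23240 rows of gene counts, and all 10 were found: Fabp7, Slc1a3, Mfge8, Ednrb, Aldoc, Hopx, Ptprz1, Tnc, Ttyh1 and Fam107a. The cells came from cortices of mouse embryos at embryonic day 15.5. Heterozygous Nestin-GFP mice had been bred with homozygous DCX-mRFP mice, and the embryos used were those positive for both reporters. The groups were neurons, sorted for green and red fluorescence together, and neural progenitor cells (NPCs), sorted for green fluorescence, with 2 RNA-seq libraries of total RNA each. The labels do not give a strain, a sex or the number of embryos behind a library.

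In the cortical wall, radial glia span from the ventricle to the outer surface, divide at the ventricle, and give rise to neurons directly or through intermediate progenitors. Newborn neurons climb along their long fibres. Late in development radial glia turn into astrocytes, and many of their genes are shared with that cell type. The 10 genes cover several jobs of these cells: handling of fatty acids, glutamate and sugar (Fabp7, Slc1a3, Aldoc), signals and matrix at the cell surface (Mfge8, Ednrb, Tnc, Ptprz1, Ttyh1), and proteins used as marks of outer radial glia in the human cortex (Hopx, Fam107a). Tnc and Ptprz1 are used as marks of human outer radial glia as well.

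Depth was 52611828 to 55329294 counts in the neuron libraries and 53533953 to 55615142 counts in the NPC libraries. Nes, which encodes nestin, was at 33.1 and 36.4 CPM (counts scaled for depth and between libraries) in neurons, against 103 and 97.8 CPM in NPCs. Dcx, which encodes doublecortin, was at 1358.3 and 1441 CPM in neurons, against 468 and 493 CPM in NPCs. These genes are behind the reporters, so they serve as a check of the labels. The labels call the libraries duplicates, and p-values measure only the spread between them, which may be technical. A fall in such bulk libraries cannot tell apart fewer cells that carry a transcript and less of it per cell.

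Fabp7 was the most abundant of the 10 per base of exon. Tnc and Aldoc held matches to more than 1 motif, and Ptprz1 was the gene that moved the other way. The promoters of these 4 genes are shown. Each is 250 bases before to 50 bases after the most upstream RefSeq start in build GRCm38.p6, given 5′ to 3′ on the gene's own strand, at chr10:57784673-57784972 (plus strand) for Fabp7, chr4:64046966-64047265 (minus strand) for Tnc, chr11:78322823-78323122 (plus strand) for Aldoc and chr6:22875252-22875551 (plus strand) for Ptprz1. Capitals mark every match, on either strand, to TGGGAA (bound by RBPJ, the DNA-binding factor of the Notch pathway), TGCAAAT (the core of the POU octamer), ACAAAG (a SOX site) or TTGGCA (part of a nuclear factor I site).
Fabp7: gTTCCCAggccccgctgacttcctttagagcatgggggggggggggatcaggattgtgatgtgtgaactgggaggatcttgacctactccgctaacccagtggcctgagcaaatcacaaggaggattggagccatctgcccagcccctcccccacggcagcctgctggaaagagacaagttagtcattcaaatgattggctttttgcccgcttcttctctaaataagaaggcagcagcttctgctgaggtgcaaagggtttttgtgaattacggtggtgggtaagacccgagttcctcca
Tnc: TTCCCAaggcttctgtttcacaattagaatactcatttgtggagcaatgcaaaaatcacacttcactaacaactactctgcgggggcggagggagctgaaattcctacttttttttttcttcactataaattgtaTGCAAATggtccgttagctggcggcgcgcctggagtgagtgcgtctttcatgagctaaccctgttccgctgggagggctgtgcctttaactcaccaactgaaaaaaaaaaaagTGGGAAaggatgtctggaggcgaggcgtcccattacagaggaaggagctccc
Aldoc: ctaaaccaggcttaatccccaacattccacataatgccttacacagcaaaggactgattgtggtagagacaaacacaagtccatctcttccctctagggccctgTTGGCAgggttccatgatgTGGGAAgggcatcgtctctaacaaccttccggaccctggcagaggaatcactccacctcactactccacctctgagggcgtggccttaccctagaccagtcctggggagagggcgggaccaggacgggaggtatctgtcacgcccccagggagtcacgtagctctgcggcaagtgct
Ptprz1: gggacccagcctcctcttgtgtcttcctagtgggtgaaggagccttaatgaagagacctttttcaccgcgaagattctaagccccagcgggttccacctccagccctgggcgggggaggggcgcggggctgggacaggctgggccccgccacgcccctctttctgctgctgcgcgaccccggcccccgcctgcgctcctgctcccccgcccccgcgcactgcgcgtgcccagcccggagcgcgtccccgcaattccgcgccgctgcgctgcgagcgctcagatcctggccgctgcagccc

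All 10 genes had such a promoter window in RefSeq. The letters TGGGAA were in 5 of the 10 windows (Fabp7, Mfge8, Aldoc, Tnc and Fam107a), against 25.5% of all 27025 promoters. In the Tnc window they occurred at 2 places, beginning at positions -250 and -2 relative to the start. TGCAAAT was in the Tnc window, beginning at position -115, against 3.99% of all promoters. TTGGCA was in the Aldoc window, against 14.4% of all promoters, and ACAAAG, found in 18.7% of promoters, was in 0 of the 10. No match overlapped another. The Ptprz1 window held no match and had a GC content of 71.7%, above that of 93.0% of all promoters, where the other 9 lay between 45.3% (Slc1a3) and 64.3% (Mfge8). A match is a string of letters, and binding was not measured.

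In neurons, 9 of the 10 genes were lower and 1, Ptprz1, was higher, each past 0.05 by the quasi-likelihood test of edgeR (p adjusted by Benjamini-Hochberg over all genes tested). Of 15292 genes tested, 36.9% were called higher in NPCs, 35.8% higher in neurons and 72.6% in either direction, so being called is common in this comparison. By count, 5467 genes were higher in neurons and 5641 in NPCs, and with library size as the only scaling 3840 were higher in neurons and 7610 in NPCs. A fall of at least 4-fold by the fitted change was found for 8 of the 10, against 9.39% of all genes tested. The median log2 change of the 10 was -2.25, and that of all genes tested was -0.02. The 2 neuron libraries and the 2 NPC libraries did not overlap for any of the 10, as for 86.0% of genes tested. All 10 passed the filter on low counts. Fam107a passed it only through its NPC libraries, so it was bound to be either lower in neurons or not called.

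**Figure D1:**
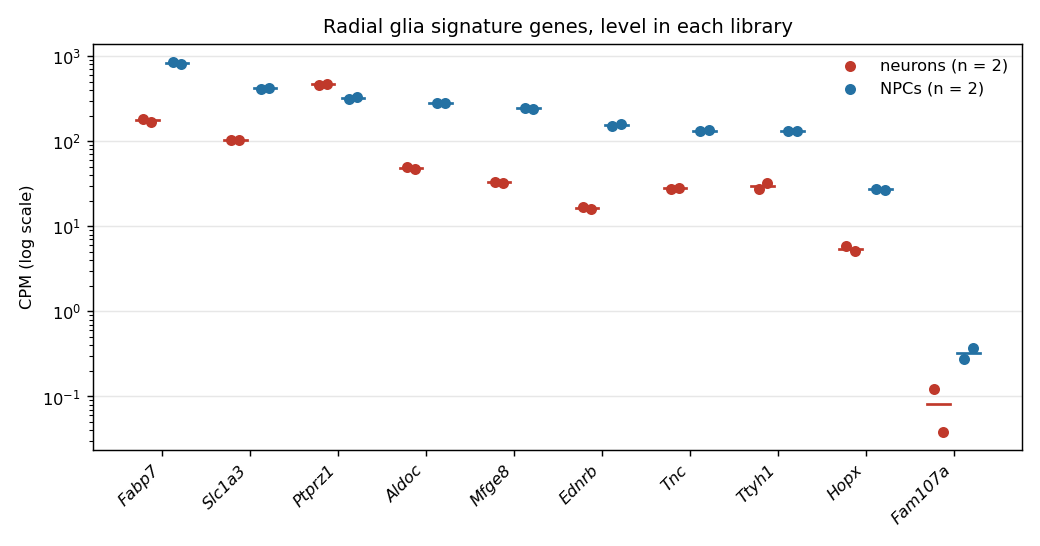
Level of each radial glia signature gene in CPM (log axis), 1 point per library, neurons in red left of NPCs in blue, with a line at the mean of each pair. Red points lie below blue points for 9 genes and above them for Ptprz1, which averaged 469 CPM in neurons and 321 CPM in NPCs.

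Among the metabolic genes, Fabp7 had the highest level. It encodes brain lipid-binding protein, a small carrier of fatty acids in the cytosol that is known as a target of Notch signalling in radial glia. Fabp7 was at 182 and 170 CPM in neurons, against 844 and 819 CPM in NPCs. Both neuron libraries were far below both NPC libraries, and the mean was 4.73-fold higher in NPCs (log2 change -2.24 ± 0.06 SE, edgeR adjusted p = 5.6e-15). Slc1a3 encodes GLAST, the membrane transporter by which radial glia and astrocytes take up glutamate and aspartate. Slc1a3 was at 103 and 104 CPM in neurons, against 412 and 428 CPM in NPCs, a log2 change of -2.02 ± 0.06. Its neuron duplicates were nearly equal, and its mean in neurons was 24.6% of that in NPCs. Aldoc encodes aldolase C, the brain form of a glycolytic enzyme. Aldoc was at 49.9 and 47.5 CPM in neurons, against 283 and 279 CPM in NPCs, a log2 change of -2.53 ± 0.06. The gap between groups was many times the gap between duplicates for each of these 3 genes.

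Of the genes for secreted and surface proteins, Ednrb and Mfge8 had the strongest falls among the 10. Ednrb encodes a receptor for endothelins, peptides best known from blood vessels. Ednrb was at 16.6 and 15.8 CPM in neurons, against 149 and 159 CPM in NPCs, so that neurons kept 10.5% of the NPC level (log2 change -3.25 ± 0.07, edgeR adjusted p = 8.8e-16). Mfge8 encodes a secreted protein that links phosphatidylserine on membranes to integrins. Mfge8 was at 33.2 and 32.4 CPM in neurons, against 245 and 242 CPM in NPCs, and neurons kept 13.5% of the NPC level (log2 change -2.89 ± 0.06, edgeR adjusted p = 6.7e-16). The 95% intervals of the log2 changes of Ednrb (-3.39 to -3.11) and Mfge8 (-3.01 to -2.77) did not overlap. Tnc encodes tenascin-C, a large glycoprotein of the extracellular matrix. Tnc was at 27.2 and 28.6 CPM in neurons, against 131 and 134 CPM in NPCs, a log2 change of -2.25 ± 0.06. Ttyh1 encodes a membrane protein of the tweety family. Ttyh1 was at 27.3 and 31.9 CPM in neurons, against 133 and 131 CPM in NPCs, a log2 change of -2.16 ± 0.07. Its neuron duplicates differed by 0.23 on the log2 scale, more than those of the other genes except Fam107a, and its NPC duplicates by 0.01.

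Ptprz1 rose in neurons. It encodes a receptor-type tyrosine phosphatase whose outer part carries chondroitin sulfate chains, and which is known from radial glia and from oligodendrocyte precursors. Ptprz1 was at 464 and 474 CPM in neurons, against 314 and 328 CPM in NPCs. Both neuron libraries were above both NPC libraries by more than the gap between duplicates, a 1.46-fold rise (log2 change 0.55 ± 0.05, 95% interval 0.43 to 0.66, edgeR adjusted p = 9.6e-08). Ratios within a library need no scaling between libraries. Per base of exon (all annotated exons of a gene merged), Ptprz1 stood at 2.70 and 2.75 times Slc1a3 in neurons, against 0.457 and 0.460 times in NPCs. The log2 change of that ratio was 2.57.

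Hopx and Fam107a had the fewest counts of the 10. Hopx encodes a small atypical homeodomain protein that does not bind DNA. Hopx was at 5.82 and 5.11 CPM in neurons, against 27.7 and 26.6 CPM in NPCs, a log2 change of -2.31 ± 0.10. Fam107a, whose product acts on the actin cytoskeleton, had 6 and 2 counts in neurons, against 16 and 22 counts in NPCs. Summed over libraries, the ratio of neurons to NPCs was 0.246, with an exact 95% interval of 0.099 to 0.535 that covers counting error only. The fitted log2 change was -1.99 ± 0.62 (edgeR adjusted p = 0.0088). That call was lost without NPC replicate 2 (log2 change -1.77, edgeR adjusted p = 0.067), without neuron replicate 2 (-1.37, 0.124) and with DESeq2 (adjusted p = 0.0741). Over all alternatives its log2 change ran from -2.98 to -1.37.

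**Figure D2:**
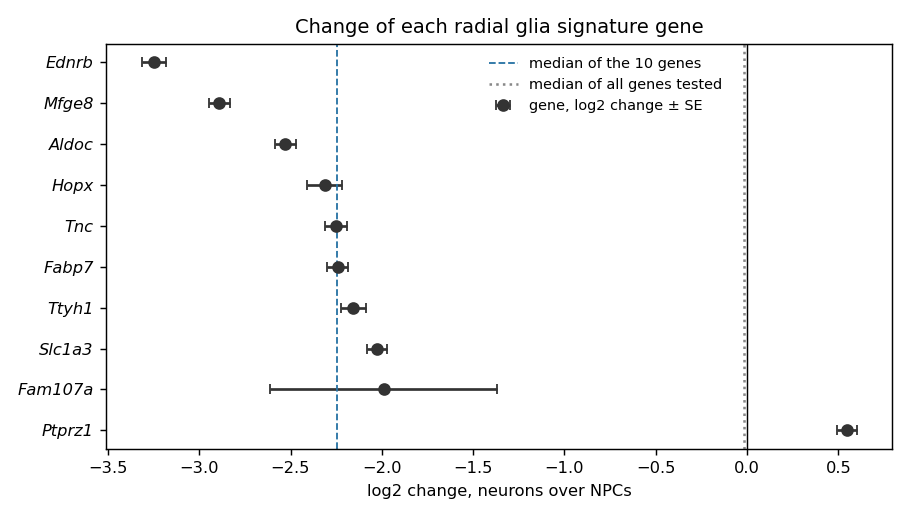
Log2 change, neurons over NPCs, of each signature gene (points, bars ± SE), ordered from the lowest, with the median of the 10 genes (dashed) and of all genes tested (dotted). Ednrb lies lowest at -3.25, a group from Hopx to Slc1a3 lies between -2.31 and -2.02, and Ptprz1 lies above 0 at 0.55.

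The 9 falls, as fold differences of mean CPM, spanned 4.001 (Fam107a) to 9.49 (Ednrb). The log2 changes of Hopx (-2.31), Tnc (-2.25), Fabp7 (-2.24), Ttyh1 (-2.16) and Slc1a3 (-2.02) were neighbours whose 95% intervals overlapped one with the next. Aldoc at -2.53 came between these and Mfge8, and its interval overlapped that of Hopx and did not overlap that of Mfge8. Per base of exon, the ratio of Fabp7 to Slc1a3 was 12.1 and 11.2 in neurons, against 14.0 and 13.1 in NPCs. That is a log2 change of -0.22, where each gene by itself changed by more than 2.

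Levels of different genes were compared as CPM per kilobase of exon. Lengths were those of all exons annotated for a gene in GENCODE M21, merged, which can be longer than any single transcript. Which gene models the authors counted on is not given. In neurons Fabp7 was highest at 141 ± 7.07 CPM per kb (SD, n = 2), followed by Ptprz1 at 32.9 ± 0.506, Aldoc at 14.9 ± 0.525, Slc1a3 at 12.1 ± 0.0432, Mfge8 at 6.99 ± 0.118 and Ttyh1 at 4.64 ± 0.515. Ednrb (3.80), Hopx (3.60) and Tnc (3.59) followed and were not separated beyond the spread of their duplicates, and Fam107a was last at 0.021. In NPCs Fabp7 was again highest at 665 ± 14.0 CPM per kb, followed by Aldoc at 86.1 ± 0.719, Mfge8 at 51.9 ± 0.457, Slc1a3 at 49.2 ± 1.33, Ednrb at 36.1 ± 1.65 and Ptprz1 at 22.5 ± 0.723. Ttyh1 (20.7), Hopx (17.9), Tnc (17.1) and Fam107a (0.084) followed. Among 13747 tested genes with an exon length, Fabp7 ranked 288 in neurons and 29 in NPCs. Ptprz1 ranked 1682 in neurons and 2242 in NPCs, which made it the second most abundant of the 10 in neurons and the sixth in NPCs. In CPM, which is not per length, Ptprz1 was the highest of the 10 in neurons, at 469 against 176 for Fabp7. In NPCs, at 321 CPM, it was below only Fabp7 (831) and Slc1a3 (420). The place of Ptprz1 among the 10 thus depends on the lengths used.

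**Figure D3:**
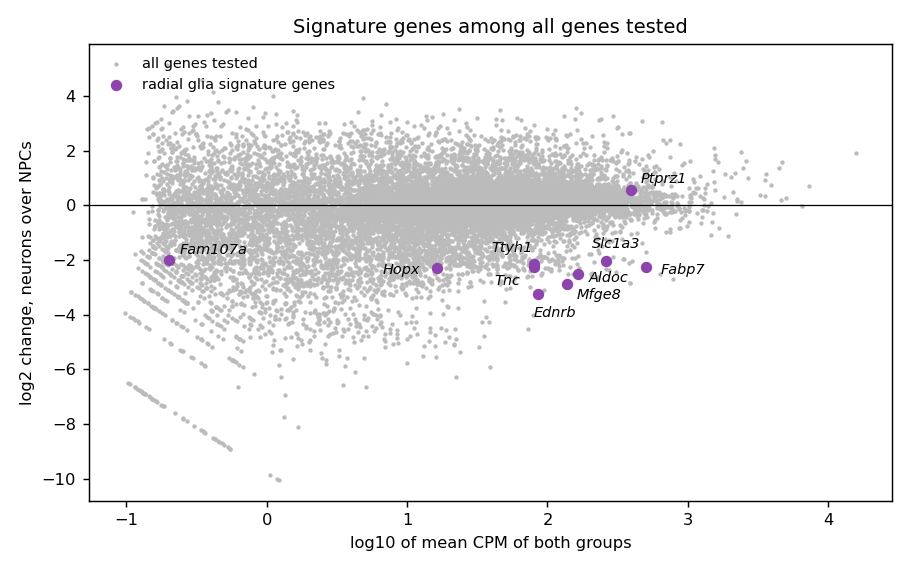
Log2 change, neurons over NPCs, against the log10 of the mean CPM of both groups, with 1 grey point per gene tested (15292 genes) and the signature genes in purple. In all, 8 of the 10 lie below -2, with Ptprz1 at 0.55 and the scarce Fam107a, at -1.99, at the left edge.

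Most of the 10 genes have relatives, and these moved in both directions. So did all genes tested, of which 35.8% were higher in neurons and 36.9% higher in NPCs, shares near those of the relatives. Of 19 relatives in the same gene families, 17 were tested: 6 rose in neurons, 7 fell, and 4 did not pass (median log2 change -0.16). Of these, 1 that fell reached the low-count limit in NPC libraries alone. With library size as the only scaling, or with upper-quartile factors, 6 rose and 9 fell. Of the fatty acid carriers, Fabp3 was at 20.3 and 19.3 CPM in neurons, against 2.66 and 2.60 CPM in NPCs, a log2 change of 2.91 ± 0.11. Fabp5 rose by 0.78 ± 0.08 on the log2 scale, at 219 and 281 CPM in neurons and 149 and 143 CPM in NPCs. Per base of exon, Fabp7 exceeded Fabp5 by 2.37 and 1.72 times in neurons, against 16.2 and 16.3 times in NPCs. With these exon lengths Fabp7 was the highest of the 3 carriers in both groups. In CPM, which is not per length, Fabp5 was above Fabp7 in both neuron libraries. The merged lengths were 1250 bases for Fabp7 and 3567 bases for Fabp5, so their order in neurons depends on the lengths used.

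Glutamate transporters went different ways. Slc1a1, which encodes the transporter EAAC1 known from neurons, was at 45.8 and 48.7 CPM in neurons, against 9.66 and 8.31 CPM in NPCs, a log2 change of 2.40 ± 0.09. The glial transporter gene Slc1a2 was at 14.5 and 15.1 CPM in neurons, against 16.2 and 16.9 CPM in NPCs, and did not pass (-0.16 ± 0.09, edgeR adjusted p = 0.109). It passed with library size only (-0.37), with upper-quartile factors (-0.26) and with a filter of 5 CPM (-0.21). The neutral amino acid transporter gene Slc1a5 fell by 2.04 on the log2 scale, and Slc1a4 fell by 0.39. Per base of exon, Slc1a3 exceeded Slc1a1 by 2.18 and 2.06 times in neurons, against 41.3 and 49.8 times in NPCs.

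Aldoa, the aldolase gene used in most tissues, fell by less than Aldoc. It was at 232 and 221 CPM in neurons, against 274 and 264 CPM in NPCs, a log2 change of -0.25 ± 0.05 (edgeR adjusted p = 0.00058). Per base of exon, Aldoc stood at 0.244 and 0.245 times Aldoa in neurons, against 1.17 and 1.201 times in NPCs. With these exon lengths Aldoc was thus the lower of the pair in neurons and the higher in NPCs. In CPM, which is not per length, the NPC means were close, at 281 for Aldoc and 269 for Aldoa. The tweety genes Ttyh2 and Ttyh3 differed from each other. Ttyh2 fell by 2.88 on the log2 scale, at 3.63 CPM in neurons and 26.7 CPM in NPCs, and Ttyh3 was at 55.1 ± 8.43 CPM in neurons and 61.4 ± 2.00 CPM in NPCs without passing (-0.16, edgeR adjusted p = 0.092). The Ttyh3 value moved with the libraries and the scaling: it was 0.0019 without neuron replicate 1, and it passed without neuron replicate 2 (-0.31), with library size only (-0.36), with upper-quartile factors (-0.26) and with a filter of 5 CPM (-0.20).

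The relatives of the surface and matrix genes included pairs that moved in opposite directions. Edil3 encodes a secreted protein built like that of Mfge8. It was at 190 and 194 CPM in neurons, against 33.1 and 36.4 CPM in NPCs, a log2 change of 2.47 ± 0.06. Per base of exon, Mfge8 stood at 0.508 and 0.488 times Edil3 in neurons, against 21.6 and 19.4 times in NPCs. Tnr, which encodes the matrix protein tenascin-R, was at 5.16 and 6.10 CPM in neurons, against 1.32 and 1.68 CPM in NPCs, a log2 change of 1.91 ± 0.18. Fam107b rose by 0.85 ± 0.06 on the log2 scale, to 199 CPM in neurons against 110.3 CPM in NPCs. For the phosphatases the pattern was turned round: Ptprg, the nearest relative of Ptprz1, was at 41.3 and 44.4 CPM in neurons, against 84.8 and 88.3 CPM in NPCs, a log2 change of -1.01 ± 0.06. Ednra, the other endothelin receptor gene, fell by 4.89 ± 0.15, to 0.648 ± 0.0395 CPM in neurons against 19.3 ± 1.18 CPM in NPCs.

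**Figure D4:**
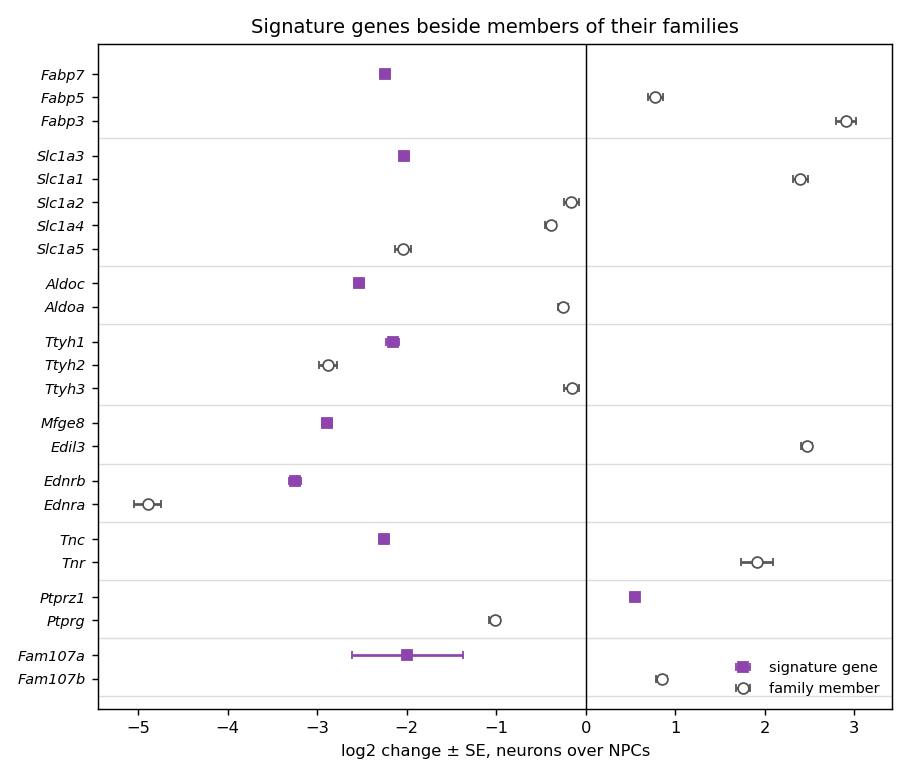
Log2 change, neurons over NPCs, ± SE of signature genes (purple squares) and of relatives in the same gene families (open circles; relatives such as Tnn and Tnxb are not drawn), 1 family per block. Fabp3, Fabp5, Slc1a1, Edil3, Tnr and Fam107b lie above 0 beside signature genes below 0, while Ptprg lies below 0 beside Ptprz1.

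Ligands and partners of the 10 proteins were measured in the same libraries. Of 22 such genes, 3 rose in neurons, 15 fell and 4 did not pass (median log2 change -1.05). Edn1, Edn2 and Edn3 reached the low-count limit in NPC libraries alone, so these 3 could only fall or not be called. With a filter of 5 CPM, which tested fewer of them, 7 fell. For Ptprz1, the secreted ligand genes were lower in neurons. Mdk, which encodes midkine, was at 133 and 117 CPM in neurons, against 355 and 332.9 CPM in NPCs, a log2 change of -1.46 ± 0.06. Ptn, which encodes pleiotrophin, was at 178 and 173 CPM in neurons, against 241 and 237 CPM in NPCs, a log2 change of -0.44 ± 0.05. The gene of its cell-surface partner contactin, Cntn1, was at 43.2 ± 0.417 CPM in neurons and 46.0 ± 0.380 CPM in NPCs and did not pass (-0.09 ± 0.06, edgeR adjusted p = 0.2), though it did with library size only (-0.30) and upper-quartile factors (-0.19). Adhesion molecule genes of neurons, Ncam1 and L1cam, rose by 1.31 ± 0.05 and 1.79 ± 0.10 on the log2 scale. The related gene Nrcam was at 174 ± 3.91 CPM in neurons and 163 ± 3.34 CPM in NPCs and did not pass (0.10 ± 0.05). Its sign turned with library size only (-0.11), and it passed without neuron replicate 1 (0.13).

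All 6 integrin genes of that list fell in neurons, though not all by stable calls. Itgav, which encodes the integrin chain that binds Mfge8 and tenascin-C, was at 12.2 and 12.6 CPM in neurons, against 61.0 and 63.8 CPM in NPCs, a log2 change of -2.33 ± 0.07. Its partner chain gene Itgb5 was at 3.67 and 2.50 CPM in neurons, against 19.0 and 21.9 CPM in NPCs. Itgb1 had the highest CPM of the integrin genes, at 179 ± 3.89 CPM in neurons and 314 ± 2.47 CPM in NPCs, a log2 change of -0.81 ± 0.05. The fall of Itga8 (-0.47 ± 0.20, edgeR adjusted p = 0.046) lost its call when any 1 of the libraries was left out. The call was lost also with DESeq2 (adjusted p = 0.171), and it was kept under 4 of 11 alternatives. Over these the log2 change of Itga8 ran from -0.67 to -0.38. Genes of the endothelin peptides were scarce, with Edn1, Edn2 and Edn3 each under 1 CPM in every library. Edn2 was at 0.164 and 0.194 CPM in neurons, against 0.347 and 0.737 CPM in NPCs, and its call (edgeR adjusted p = 0.009) was lost without NPC replicate 2 (-0.95, edgeR adjusted p = 0.227) and with DESeq2 (adjusted p = 0.0546). Ece1, which encodes an enzyme that activates endothelins, fell by 1.29 ± 0.17 on the log2 scale.

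Other genes of radial glia fell with the signature genes. All 18 on a list of such genes passed as lower in neurons (median log2 change -2.32). Vim, which encodes the intermediate filament vimentin, was at 171 and 204 CPM in neurons, against 1069.3 and 1069 CPM in NPCs. Sox9, a transcription factor gene of neural stem cells, had a log2 change of -2.64 ± 0.06, and Ddah1 one of -2.47 ± 0.06. Among 8 further genes known from human outer radial glia, 7 fell in neurons and 1 rose (median -1.63). Of those that fell, Moxd1 reached the low-count limit in NPC libraries alone. Acsbg1, which encodes an enzyme that activates fatty acids, was at 3.65 and 3.70 CPM in neurons, against 31.9 and 32.5 CPM in NPCs. Moxd1 was at 0.082 and 0.116 CPM in neurons, against 9.62 and 10.6 CPM in NPCs, and Pea15a fell by 1.39 ± 0.06 on the log2 scale. The exception was Lifr, a receptor gene for the cytokine LIF, at 32.7 and 28.2 CPM in neurons, against 19.6 and 20.5 CPM in NPCs. It was picked out after its value was seen.

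Of 16 tested genes known from astrocytes, 13 fell in neurons, 1 rose and 2 did not pass (median log2 change -1.77). The filter on low counts fixed the direction of 3 of them, 2 that reached its limit in NPC libraries alone and 1, Ntsr2, that reached it in neuron libraries alone. Gja1, which encodes the gap junction protein connexin 43, was at 12.3 and 11.4 CPM in neurons, against 95.3 and 96.4 CPM in NPCs. Cst3 fell by 0.47 ± 0.06 on the log2 scale. The genes that did not pass were Slc1a2, given above, and the glutamine synthetase gene Glul, at 38.0 ± 1.17 CPM in neurons and 40.0 ± 0.931 CPM in NPCs. Glul passed with library size only (-0.28) and with upper-quartile factors (-0.17). The gene higher in neurons was Ntsr2, at 0.840 and 0.620 CPM in neurons, against 0.0695 and 0.067 CPM in NPCs, picked out after its value was seen.

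Of 13 known regulators of radial glia genes, 9 fell in neurons and 4 rose (median -2.02). Pax6, a transcription factor gene of cortical progenitors, was at 33.4 and 34.2 CPM in neurons, against 168 and 168 CPM in NPCs, a log2 change of -2.31 ± 0.06, close to those of Hopx and Tnc. The 4 higher in neurons were Nfib, Nfia, Nfix and Pou3f2, of which the last 3 were picked out after their values were seen. Nfib, of the nuclear factor I family, had the highest CPM of this list, at 3026.2 and 2988.1 CPM in neurons, against 1313.9 and 1335.1 CPM in NPCs. Pou3f2, at 406 and 392.1 CPM in neurons and 349 and 356 CPM in NPCs, had a log2 change of 0.18 that turned to -0.0285 with library size only. Its call was lost also with upper-quartile factors and without either NPC library (edgeR adjusted p = 0.126 without replicate 1 and 0.0693 without replicate 2).

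All genes averaging 20 CPM or more were ranked by how close their pattern over the 4 libraries was to the median pattern of the 10, as the distance between centred log2 CPM values. The nearest 5 of 7949 were Melk, Spag5, D2Ertd750e, Tpx2 and Nde1, at distances of 0.056 to 0.060. Their log2 changes lay between -2.29 and -2.23.

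Both sorts held transcripts of other cell types, and several of these moved with the signature genes. Mfge8 and Ednrb are also known from vessel-associated cells, and Ptprz1 and Tnc from oligodendrocyte precursors. All 8 oligodendrocyte precursor markers were lower in neurons, with a summed level of 5.71 and 6.01 CPM in neurons, against 195 and 199 CPM in NPCs. Of these 8, Sox10 and Nkx2-2 reached the low-count limit in NPC libraries alone and could not have been called higher in neurons. All 10 endothelial markers were lower in neurons, with sums of 8.79 and 8.74 CPM in neurons, against 246 and 252 CPM in NPCs. All 7 pericyte markers were lower in neurons too, with sums of 11.0 and 10.8 CPM in neurons, against 235 and 242 CPM in NPCs. No marker of these 3 lists was at 0 in both libraries of a group. Neurons kept 2.97%, 3.52% and 4.58% of the NPC sums of these lists, against 10.5% to 25.0% of the NPC level for the 9 signature genes that fell. The part of these cells in the changes of the signature genes was not tested.

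Markers of fibroblasts and meninges summed to 3.44 and 2.96 CPM in neurons, against 32.4 and 34.1 CPM in NPCs (4 of 5 lower in neurons, of which 1 reached the low-count limit in NPC libraries alone), and those of microglia to 18.4 and 17.98 CPM in neurons, against 39.6 and 39.1 CPM in NPCs (7 of 7 lower). Choroid plexus markers summed to 0.614 and 0.368 CPM in neurons, against 0.452 and 0.587 CPM in NPCs, with 0 of 1 tested called. All 10 intermediate progenitor markers were lower in neurons, with sums of 1006.5 and 944 CPM in neurons, against 3619.8 and 3581.2 CPM in NPCs. Neurons kept 27.1% of the NPC sum of this list. Its median log2 change was -2.23, beside -2.25 for the 10 signature genes, so a fall of this size was not particular to the signature genes. All 11 pan-neuronal markers were higher in neurons, with sums of 10794 and 10928 CPM in neurons, against 2684.7 and 2693.9 CPM in NPCs. Interneuron markers summed to 169 and 183 CPM in neurons, against 181 and 177 CPM in NPCs, with 2 of 6 higher in each group. The parts of these cells in the changes of the signature genes were not tested.

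**Figure D5:**
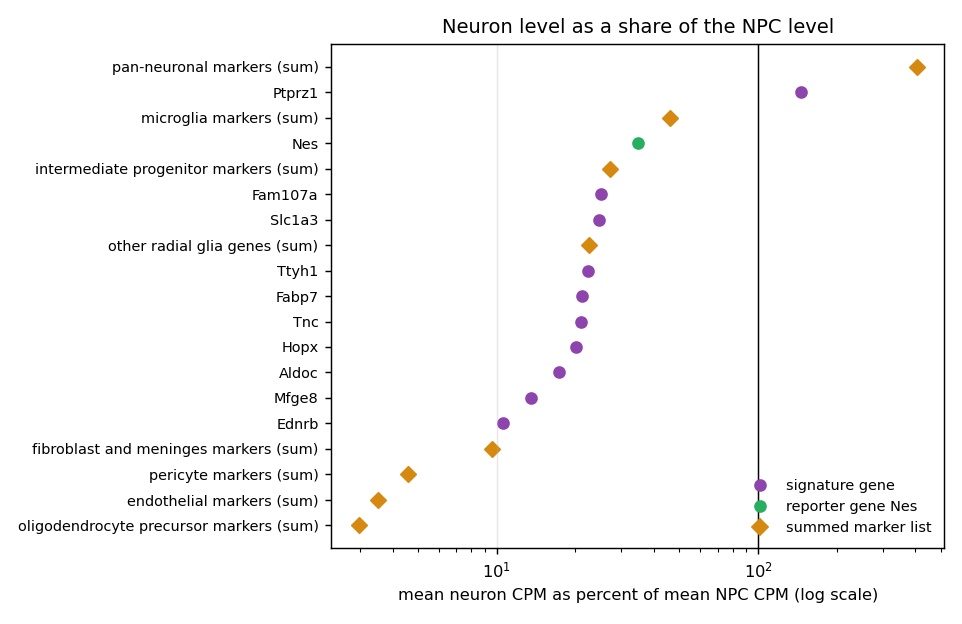
Mean level in neurons as a percent of the mean level in NPCs (log axis) for each signature gene (purple), the reporter gene Nes (green) and summed marker lists (orange diamonds). Signature genes other than Ptprz1 lie between 10.5% and 25.0%, above the vessel and oligodendrocyte precursor lists and below Nes at 34.7%.

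Neighbouring genes may have touched the counts of 4 of the genes. In GENCODE M21, Hopx, Tnc and Ttyh1 overlap noncoding genes on the opposite strand, and Slc1a3 overlaps an annotated entry of unsettled type on its own strand. Whole gene spans were compared, introns included, so shared exons were not looked for, and the authors' annotation may differ. For Hopx, Tnc and Ttyh1 the strand setting matters, and the sources used here do not give it. Whether reads of these neighbours were counted with the signature genes was not tested. The other 6 genes overlap no annotated gene.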

How the data were processed

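The authors deposited 1 table of estimated counts per gene for 4 libraries, not scaled between libraries, with 23240 rows. All values below 10000, multiplied by 101, were whole within 0.01. CASAVA 1.9, TopHat 1.2.0 and SAMtools 0.1.18 and the build mm9 are named, without roles, in the submitters' processing notes. Which counter, annotation and strand setting made the counts, and how multiply aligned reads were handled, is not given in the sources used. Groups came from the titles and columns were matched by sample name.

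Estimated counts were rounded, filtered with filterByExpr (15292 genes left) and scaled with TMM. Neurons were compared with NPCs by edgeR 4.0.16's quasi-likelihood F test (R 4.3.3). It was unpaired, and p-values were adjusted by Benjamini-Hochberg over all genes tested, with a threshold of 0.05. SEs were computed as the size of the log2 change over the root of F. The fit was run on simulated data, where 14 of the 183 genes called were false. Far fewer genes were changed in that simulation than were called in these data, so it does not check the fit for that case. Alternatives used DESeq2 1.42.0, limma-voom (limma 3.58.1), other scalings and filters, a replicate block, and each library left out.

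The 10 genes and the 15 gene lists were chosen with earlier results of these data known, so no list was tested. Named were the 10 genes, Nes and Dcx, relatives and partners, the 2 genes with the smallest p and the 1 with the highest level of other lists, and the 5 nearest patterns. Some genes of the lists are not reported here by name. Promoters are RefSeq's (GRCm38.p6), and motifs were chosen after the counts were seen.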

Additional observations from a re-analysis of the deposited data

How the results depend on the processing

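The direction of each of the 10 signature genes was the same under every alternative that tested it, and 9 of them kept their call under all 12 alternatives. Fam107a was not tested with the filter of 5 CPM and lost its call under 3 alternatives, so 9 or 10 genes were called. The log2 change of Ptprz1 ran from 0.34 to 0.58 and that of Ednrb from -3.45 to -3.20. The median of the 10 was -2.35 with upper-quartile factors and -2.45 with library size only, where the median of all genes moved to -0.12 and -0.23, and it ran from -2.34 to -2.24 when 1 library was left out. Genes called numbered 8315 to 11450, and with library size only 3840 were higher in neurons and 7610 in NPCs. Nrcam turned to -0.0041 with upper-quartile factors and -0.11 with library size only, Ttyh3 to 0.0019 without neuron replicate 1 (-0.31 without neuron replicate 2, -0.36 with library size only, -0.20 when filtered at 5 CPM and -0.26 with upper-quartile factors, in all of which it passed), and Pou3f2 to -0.0285 with library size only. The cause was not tested. Replicate numbers are shared by the groups, but the labels do not say that they pair the samples, and deviations of same-numbered libraries correlated at 0.0186 across genes. With the replicate block 11206 genes and 10 signature genes were called, with a median of -2.25, Ttyh3 passed at -0.16 and Itga8 lost its call at -0.47. Of the 10 genes, depth limited Fam107a most, with 2 to 22 counts a library.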
